A study of Mus musculus with 6 samples.

Results

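The PDZ-LIM and LIM-only genes of the Z-disc were followed in the left ventricle of Glut1-TG and WT mice. The group holds 10 of the 18193 genes on the array, the PDZ-LIM genes Pdlim1, Pdlim2, Pdlim3, Pdlim4, Pdlim5, Pdlim7 and Ldb3 and the LIM-only genes Csrp3, Fhl1 and Fhl2. A probe set, the unit of the array, is a group of short oligonucleotides that reads 1 transcript or several related ones. Every probe set whose annotation holds exactly 1 symbol, that symbol being 1 of these genes, was taken, which gave 23 of the 45037 probe sets that are not controls. The genes were chosen by family, with the difference between Glut1-TG and WT hearts on these same arrays already known, among them the higher Pdlim7 signal. Their differences are therefore given as a description with intervals, no p is given for a member, and nothing is read from how many of them passed.

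Glut1-TG mice carry human Glut1, a glucose transporter that does not depend on insulin, under the alpha-myosin heavy chain promoter, which is active in cardiomyocytes; WT mice lack it. Both groups were FVB males on standard chow, aged 11 to 12 weeks, with 3 arrays each. The deposited signal is linear and was scaled by the authors to the same trimmed mean of 500 in every array. The labels number the arrays as replicates and do not say more about the animals, so the spread given is that between arrays. The mouse probe sets of Slc2a1, which encodes Glut1, had log2 fold changes of 0.69, -1.19 and -2.30 (adjusted p by limma = 0.15, 0.19 and 0.023). Only the last had an adjusted p under 0.05, with a mean signal of 88.6 in Glut1-TG and 414 in WT hearts. Since it is not known whether these probe sets read the human transcript, they do not check the transgene.

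LIM domains are zinc-binding protein modules that dock other proteins. In the PDZ-LIM proteins a PDZ domain, which holds alpha-actinin at the Z-disc, stands before 1 or more LIM domains, which in the Enigma branch (Pdlim5, Pdlim7 and Ldb3) recruit kinases such as protein kinase C. The branch of Pdlim1, Pdlim2, Pdlim3 and Pdlim4 carries a single LIM domain. Csrp3, or muscle LIM protein, and the FHL proteins Fhl1 and Fhl2 have no PDZ domain and lie at the Z-disc and along titin, and mutations of LDB3, CSRP3 and FHL1 cause cardiomyopathy or myopathy in humans.

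The comparison asked how cardiomyocyte Glut1 changed the transcripts of these proteins. Of the 23 probe sets, 20 had a mean signal above 115, the filter that kept the upper 60% of all probe sets, and every gene kept at least 1. In the limma fit over 27022 probe sets, 1 of the 20 rose in Glut1-TG hearts, a probe set of Pdlim7, and 0 fell. Over all probe sets tested 0.148% rose and 0.289% fell. At an unadjusted p under 0.05, 2 of the 20 were higher and 5 were lower, and the shares over all probe sets were 4.86% and 5.08%. The groups did not overlap in 7 of the 20, with 2 higher and 5 lower in Glut1-TG hearts, while over all probe sets these shares were 8.12% and 7.91%. The median log2 fold change of the 20 was -0.07, against 0.02 for all probe sets tested. The median standard error was 0.14 for the 20 and 0.23 for all, and several of the 20 share a gene, so the counts and shares are not matched.

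**Figure D1:**
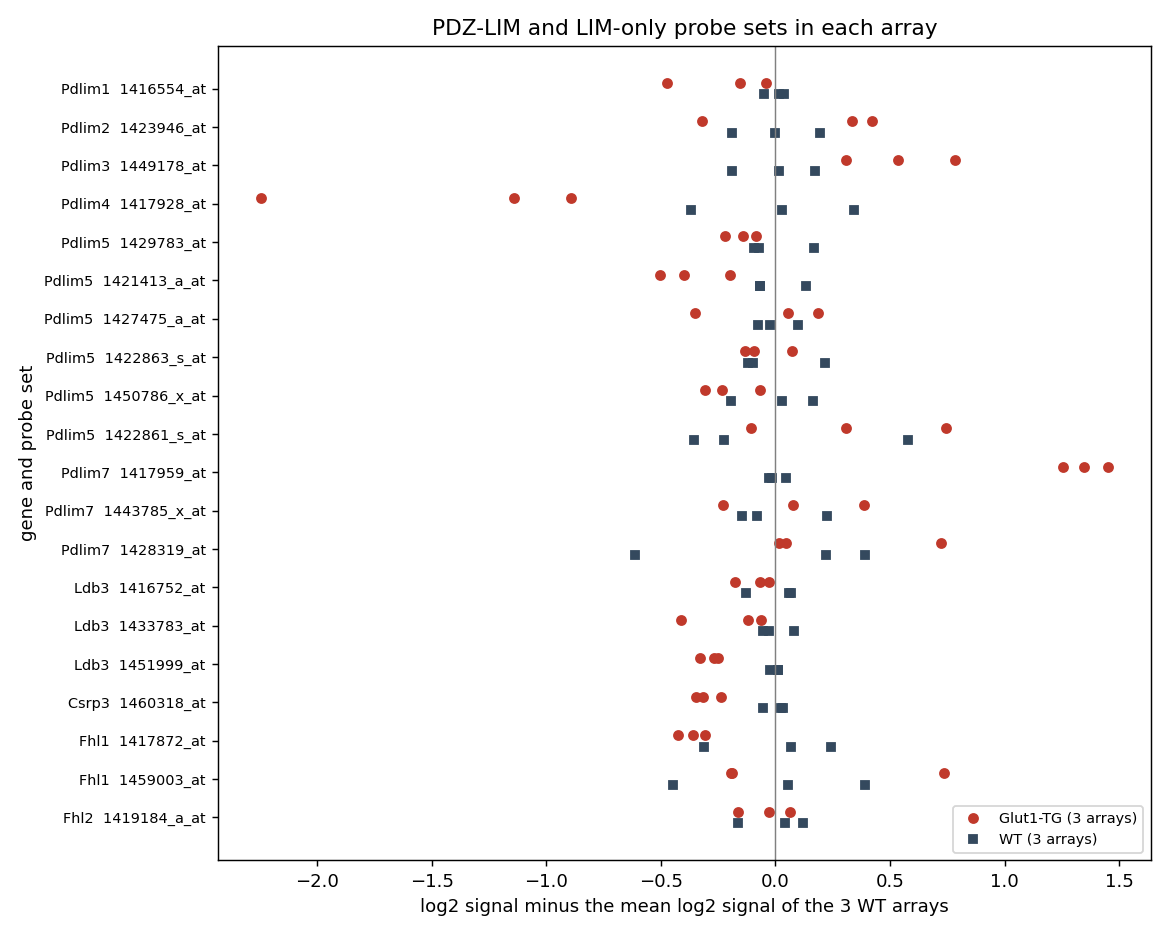
Log2 signal of the 20 tested probe sets in each array, minus the mean log2 signal of the 3 WT arrays (horizontal axis), with Glut1-TG arrays as red circles and WT arrays as dark squares. The 3 Glut1-TG arrays of Pdlim7 1417959_at lie far to the right of the WT arrays and those of Pdlim4 to the left, while most rows overlap or nearly touch.

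Sequence before the transcription start is shown for the gene with the probe set that rose (Pdlim7), the gene furthest below WT (Pdlim4) and the 3 genes with a CArG box, the DNA element bound by the muscle and cytoskeletal factor SRF. RefSeq promoter windows of build GRCm38.p6 matched 9 of the 10 genes with 14 windows, and the 250 bases before the start were searched on both strands. Capitals mark CArG boxes and GC boxes (GGGCGG or its complement). The reference is of another strain than FVB, and where a gene has several starts 1 window with a CArG box is printed.
Pdlim7, chr13:55513447-55513696, minus strand: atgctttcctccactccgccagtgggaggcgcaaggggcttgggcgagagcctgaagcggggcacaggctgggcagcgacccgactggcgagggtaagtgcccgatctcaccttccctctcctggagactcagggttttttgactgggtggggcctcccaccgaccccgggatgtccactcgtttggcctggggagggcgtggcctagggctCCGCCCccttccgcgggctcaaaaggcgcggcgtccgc
Pdlim4, chr11:54069018-54069267, minus strand: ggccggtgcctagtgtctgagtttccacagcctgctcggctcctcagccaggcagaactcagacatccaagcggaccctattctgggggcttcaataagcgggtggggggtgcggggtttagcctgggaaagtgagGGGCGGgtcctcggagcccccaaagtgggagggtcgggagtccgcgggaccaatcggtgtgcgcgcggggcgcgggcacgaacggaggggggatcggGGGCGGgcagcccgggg
Ldb3, chr14:34588682-34588931, minus strand: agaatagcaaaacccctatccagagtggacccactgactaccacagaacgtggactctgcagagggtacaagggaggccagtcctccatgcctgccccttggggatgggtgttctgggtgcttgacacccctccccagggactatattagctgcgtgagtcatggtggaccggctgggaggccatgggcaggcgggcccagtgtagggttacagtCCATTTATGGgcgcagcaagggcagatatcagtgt
Fhl1, chrX:56779433-56779682, plus strand: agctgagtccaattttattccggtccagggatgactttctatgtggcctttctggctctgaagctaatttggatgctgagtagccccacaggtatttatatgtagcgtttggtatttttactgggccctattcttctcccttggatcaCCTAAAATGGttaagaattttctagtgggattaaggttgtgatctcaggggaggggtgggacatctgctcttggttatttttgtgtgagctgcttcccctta
Fhl2, chr1:43163962-43164211, minus strand: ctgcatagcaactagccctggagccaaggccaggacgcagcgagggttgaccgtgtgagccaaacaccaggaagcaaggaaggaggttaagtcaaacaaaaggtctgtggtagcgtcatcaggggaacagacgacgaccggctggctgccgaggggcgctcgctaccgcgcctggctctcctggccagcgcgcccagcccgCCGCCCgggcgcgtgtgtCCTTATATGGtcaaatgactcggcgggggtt

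A CArG box stood in 5 of the 14 windows, those of Fhl1, Fhl2 and Ldb3, and in 1.47% of the 32851 windows of all genes. The 2 windows of Ldb3 overlap and hold the same box. The box of Fhl2 shown above, CCTTATATGG, begins 31 bases before the start, that of Ldb3, CCATTTATGG, 35 bases before, and that of Fhl1, CCTAAAATGG, 102 bases before. The other start of Fhl2 had both a CArG box and the only MEF2 site of the group, against 2.92% of all windows. Pdlim7 and Pdlim4 had GC boxes and neither of these muscle elements, and a GC box stood in 6 of the 14 windows and in 32.7% of all. The MCAT element CATTCC, bound by TEAD factors, was found in Pdlim3 alone, against 12.6% of all windows, and an E-box (CANNTG) in 8 windows, against 66.2%. An E-box CACGTG, as in the element read by ChREBP, was in 0 of the 14 windows and in 6.02% of all, and a TATAAA box, searched on the strand of the gene, was in 0 and in 7.59%. These matches describe letters only.

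Pdlim7, or Enigma, joins alpha-actinin and tropomyosin to kinases and receptor tails. Its probe set 1417959_at gave signals of 4014, 3502 and 3731 in the Glut1-TG arrays and 1452, 1515 and 1438 in the WT arrays. The groups were far apart, the lowest Glut1-TG array lying above the highest WT array, and each group was tight. The means were 3749 ± 256 in Glut1-TG and 1469 ± 41.0 in WT hearts (SD, n = 3 each). On the log2 scale this was 1.35 (standard error 0.09, with a 95% confidence interval of 1.14 to 1.56), or 2.55 times the WT signal (2.21 to 2.95).

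The other probe sets of Pdlim7 did not share this difference. Probe set 1443785_x_at gave 984, 644 and 796 in the Glut1-TG arrays and 682, 880 and 713 in the WT arrays, with a log2 fold change of 0.08 (95% confidence interval -0.33 to 0.48). Probe set 1428319_at gave 261, 267 and 427 in the Glut1-TG arrays and 169, 338 and 301 in the WT arrays, with 0.26 (-0.46 to 0.99). In both the groups overlapped, and both upper bounds lie below the lower bound of the first probe set, 1.14; this difference between probe sets was not tested. The files used here do not place the probe sets on the transcript, so they do not tell which transcripts of Pdlim7 each one reads. As the mean of its 3 probe sets Pdlim7 had a log2 fold change of 0.56 and did not pass.

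**Figure D2:**
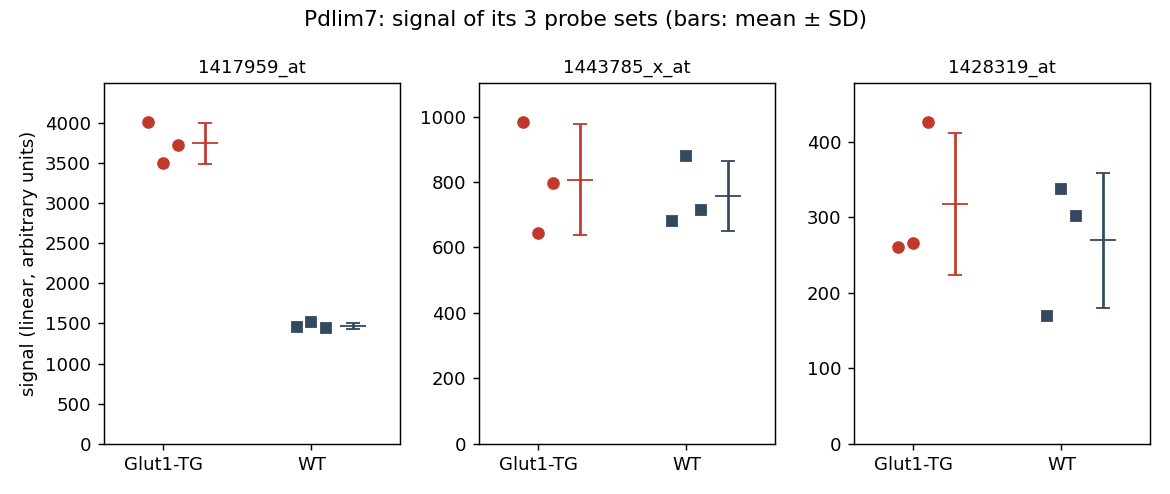
Signal (linear, arbitrary units, vertical axes of different range starting at 0) of the 3 Pdlim7 probe sets in the Glut1-TG (red circles) and WT (dark squares) arrays, with mean and SD at the right of each group. In 1417959_at the groups average 3749 and 1469, and in the other probe sets the arrays of both groups overlap.

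The genes whose pattern over the 6 arrays was most like that of Pdlim7 1417959_at were found among 13177 other genes by the root mean square difference of their log2 signals, each centred on its own mean. They were Acaca (acetyl-CoA carboxylase of fatty acid synthesis), with a difference of 0.12, Hba-x (an embryonic alpha-like globin), with 0.18, and Slc37a4 (the glucose-6-phosphate transporter), also with 0.18. Acaca gave 1142, 997 and 883 in the Glut1-TG arrays and 384, 429 and 334 in the WT arrays. Hba-x gave 252, 272 and 219 in the Glut1-TG arrays and 122, 99.9 and 94.9 in the WT arrays, and WT replicates 2 and 3 lay under the signal of the filter, 115. Slc37a4 gave 1688, 2157 and 1723 in the Glut1-TG arrays and 768, 666 and 706 in the WT arrays. In all 3 the groups did not overlap, which the choice by likeness to Pdlim7 favours, so their log2 fold changes of 1.40, 1.23 and 1.37 are a description without a test. Hba-x was the least precise, with a standard error of 0.32 against 0.17 for Acaca and 0.13 for Slc37a4.

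Within the Enigma branch, no tested probe set of Pdlim5 or Ldb3 passed, and of the Pdlim7 probe sets only 1417959_at did. Ldb3, known as Cypher or ZASP, is the striated muscle member that keeps the Z-disc intact under contraction. Its probe set 1416752_at gave 17863, 17389 and 16138 in the Glut1-TG arrays and 19122, 16704 and 18986 in the WT arrays, and these overlapped (log2 fold change -0.09, 95% confidence interval -0.28 to 0.10). Probe set 1433783_at gave 9155, 7489 and 9524 in the Glut1-TG arrays and 9774, 9588 and 10517 in the WT arrays (-0.20, -0.43 to 0.03). Probe set 1451999_at gave 1452, 1435 and 1375 in the Glut1-TG arrays and 1739, 1702 and 1743 in the WT arrays (-0.28, -0.50 to -0.07). In the last 2 the groups did not overlap and Glut1-TG was the lower, though in 1433783_at by a small gap, and none of the 3 passed.

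Pdlim5, or ENH, anchors protein kinase C and D isoforms near the Z-disc and has short and long transcripts. It had 7 probe sets, of which 6 were tested, and their log2 fold changes ran from -0.37 to 0.31 with none passing. The brightest, 1429783_at, gave 16789, 17697 and 18396 in the Glut1-TG arrays and 18570, 18279 and 21937 in the WT arrays, with a log2 fold change of -0.15 (95% confidence interval -0.35 to 0.06) and overlapping groups. In 1421413_a_at the groups did not overlap, with 2900, 2704 and 3334 in the Glut1-TG arrays and 3654, 3659 and 4196 in the WT arrays (-0.37, -0.60 to -0.13). The remaining tested probe sets overlapped: 1427475_a_at had -0.04 (-0.38 to 0.30), 1422863_s_at -0.05 (-0.38 to 0.28), 1450786_x_at -0.20 (-0.79 to 0.38) and 1422861_s_at 0.31 (-0.51 to 1.14). Probe set 1422862_at, under the filter, averaged 97.7 ± 49.3 in Glut1-TG and 121 ± 6.74 in WT hearts (SD, n = 3 each).

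In the branch with a single LIM domain the genes differed in direction. Pdlim3, or ALP, binds alpha-actinin in muscle and is known for a role in the right ventricle of mice. It gave 896, 1048 and 1246 in the Glut1-TG arrays and 733, 817 and 635 in the WT arrays, so that the groups did not overlap. The log2 fold change was 0.54 (95% confidence interval 0.18 to 0.90), or 1.46 times the WT signal (1.14 to 1.86), and it did not pass.

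Pdlim4, or RIL, binds alpha-actinin on actin stress fibres. It gave 73.0, 187 and 157 in the Glut1-TG arrays and 353, 268 and 439 in the WT arrays, again without overlap. The log2 fold change was -1.43 (95% confidence interval -2.30 to -0.55) and it did not pass. Its interval was the widest among the tested probe sets of the group. The lowest array, Glut1-TG replicate 1, lay under the signal of the filter, and without it the log2 fold change was -1.02.

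Pdlim1, or CLP-36, ties alpha-actinin to stress fibres in many cell types. Its probe set 1416554_at gave 3615, 2675 and 3338 in the Glut1-TG arrays and 3756, 3812 and 3591 in the WT arrays, with a log2 fold change of -0.22 (95% confidence interval -0.48 to 0.03). The groups overlapped, and the lowest value was that of Glut1-TG replicate 2. Its other probe sets were under the filter. Probe set 1437170_x_at averaged 168 ± 116 in Glut1-TG and 107 ± 72.2 in WT hearts, and 1437169_at averaged 67.2 ± 46.6 in Glut1-TG and 76.8 ± 32.3 in WT hearts (SD, n = 3 each). In both the groups overlapped.

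Pdlim2, or Mystique, also acts in the nucleus, where it marks NF-kappaB for degradation in immune cells. It gave 398, 625 and 665 in the Glut1-TG arrays and 496, 567 and 435 in the WT arrays, with 1 Glut1-TG array below and the others above all WT arrays. Its log2 fold change was 0.15 (95% confidence interval -0.35 to 0.64).

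Among the LIM-only genes, Csrp3 had the clearest separation of its groups. Csrp3 encodes muscle LIM protein, which acts in the growth response of cardiomyocytes to load. It gave 28636, 27146 and 26589 in the Glut1-TG arrays and 34512, 32509 and 34304 in the WT arrays. The highest Glut1-TG array lay below the lowest WT array, with means of 27460 ± 1059 in Glut1-TG and 33770 ± 1101 in WT hearts (SD, n = 3 each). The log2 fold change was -0.30 (95% confidence interval -0.47 to -0.13), or 0.81 times the WT signal (0.72 to 0.92), and it did not pass.

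Fhl1 is a partner of the titin N2B region and of the MAP kinase cascade. Its brightest probe set, 1417872_at, gave 7321, 7936 and 7668 in the Glut1-TG arrays and 7927, 10304 and 11636 in the WT arrays. The groups overlapped through WT replicate 1, the lowest WT array, and the log2 fold change was -0.36 (95% confidence interval -0.65 to -0.08) without passing. Leaving out WT replicate 1 gave -0.52, and leaving out WT replicate 3 gave -0.24. Probe set 1459003_at gave 608, 319 and 320 in the Glut1-TG arrays and 268, 478 and 379 in the WT arrays, with 0.12 (-0.57 to 0.80).

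Fhl2, which binds titin and restrains ERK and calcineurin signalling, showed the smallest difference among the LIM-only genes. It gave 29637, 31652 and 27026 in the Glut1-TG arrays and 32850, 27033 and 31149 in the WT arrays. The arrays of both groups were interleaved, and the log2 fold change was -0.04 (95% confidence interval -0.26 to 0.18).

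**Figure D3:**
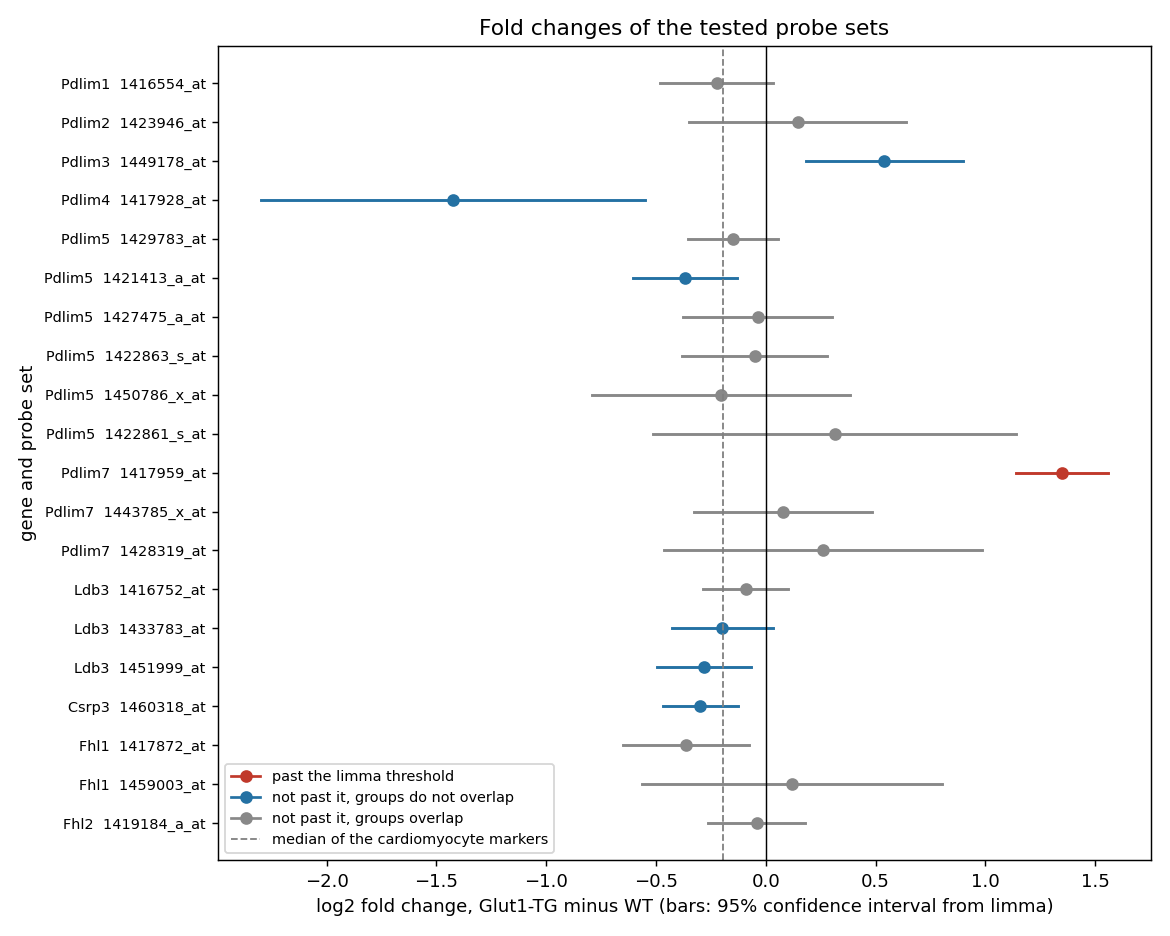
Difference in mean log2 signal, Glut1-TG minus WT (horizontal axis), for the 20 tested probe sets, with bars for the 95% confidence interval from limma; the dashed line is the median of the cardiomyocyte markers, -0.19. Pdlim7 1417959_at (red) is the 1 probe set past the threshold, blue rows have groups that do not overlap, and grey rows overlap.

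The lower values of Csrp3, Fhl1, Ldb3 and Pdlim5 stood beside lower values of the cardiomyocyte markers. Of 14 cardiomyocyte markers all 14 had a log2 fold change below 0, with a median of -0.19 and 0 past limma (4 lower and 0 higher at an unadjusted p under 0.05). Myl3 and Myh6, a light and a heavy chain of ventricular myosin, had -0.17 and -0.12 (adjusted p = 0.58 and 0.69). After quantile normalization the median of these markers was -0.01. The methods' t-test, once adjusted, called 0 genes of any list. The summed signal of the 14 markers ran from 527305 to 559195 in the Glut1-TG arrays and from 562026 to 688747 in the WT arrays. The part of these lower values in those of the group was not tested. In bulk tissue fewer cells of a type, less RNA per cell and a difference in array scaling cannot be told apart here. When every array was centred on these markers, all log2 fold changes moved up by 0.18, and those of the group lay above 0 in 12 of 20 probe sets rather than in 7. Pdlim7 1417959_at then had 1.53, Pdlim3 0.72, Pdlim4 -1.25, Csrp3 -0.12 and Fhl1 1417872_at -0.19, while Fhl2 and the brightest probe sets of Ldb3 and Pdlim5 turned to 0.14, 0.09 and 0.03. After quantile normalization these 3 had 0.08, 0.03 and -0.01, Csrp3 -0.20 and Pdlim7 1.39, and 9 of the 20 probe sets lay above 0.

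The transcripts of proteins around the group at the Z-disc and costamere were followed next. Of 29 tested genes of the Z-disc and sarcomere, 0 passed limma (1 higher and 4 lower at an unadjusted p under 0.05), with a median log2 fold change of -0.10, which was 0.0041 after quantile normalization. Ttn, the giant titin spring of the sarcomere, and Cryab, a small heat shock protein of the Z-disc, had -0.15 and -0.10 (adjusted p = 0.61 and 0.74). Of 32 other LIM domain genes 0 passed (2 higher and 2 lower at an unadjusted p under 0.05), with a median of 0.07. Crip2, a cysteine-rich LIM protein, and Ablim1, an actin-binding LIM protein, had -0.10 and -0.02 (adjusted p = 0.79 and 0.96).

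Of 23 genes of costameres and adhesions, 1 fell, Sgca, the alpha-sarcoglycan of the dystrophin complex, which averaged 4104 ± 129 in Glut1-TG and 6022 ± 608 in WT hearts (SD, n = 3 each). By limma this was -0.55 on the log2 scale, with a standard error of 0.09 (adjusted p = 0.044). The call ended without any 1 array (adjusted p = 0.068 to 0.15), without a filter (0.060), after quantile normalization (0.060) and after centring on the cardiomyocyte markers (0.30). In the same list Svil (supervillin) and Fermt2 (kindlin-2) had -0.11 and -0.05 (adjusted p = 0.74 and 0.86).

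Of 22 kinases, phosphatases and other factors bound by members, 0 passed (1 higher and 1 lower at an unadjusted p under 0.05). The brightest, Ctnnb1 (beta-catenin) and Rcan1 (a calcineurin regulator), had -0.17 and -0.18 (adjusted p = 0.52 and 0.81). Of 20 genes of SRF, its cofactors and actin targets, 1 rose, the matricellular gene Ccn1, by 0.66 (standard error 0.11, adjusted p = 0.039). Its signal averaged 3509 ± 400 in Glut1-TG and 2216 ± 165 in WT hearts (SD, n = 3 each). The other tested probe sets of Ccn1 had 0.94, 0.98 and 0.85 (adjusted p = 0.012, 0.58 and 0.50), and the first of these passed too. For the probe set used, the call ended without any 1 of the WT arrays and without Glut1-TG replicates 2 and 3 (adjusted p = 0.094 to 0.15). That call also ended without a filter (0.050) and after centring on the cardiomyocyte markers (0.065). Actc1 (cardiac actin) and Tpm1 (tropomyosin) had -0.17 and -0.19 (adjusted p = 0.55 and 0.59).

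Markers of other cells that the tissue could hold were followed beside the higher Pdlim7 and Pdlim3 signals. Of 7 tested atrial markers 1 rose, Myl4, an atrial myosin light chain, by 1.75 on the log2 scale, with a standard error of 0.23 (adjusted p = 0.012), and its call ended without WT replicate 2 (0.053). Its other tested probe set had 0.43 and did not pass (adjusted p = 0.69). At an unadjusted p under 0.05, 2 atrial markers were higher, Myl4 and Myl7, and 0 were lower. Myl7, the other atrial light chain, is named here after its values were seen. It averaged 468 ± 214 in Glut1-TG and 43.7 ± 41.0 in WT hearts (SD, n = 3 each), the WT mean lying under the signal of the filter, and limma did not call it (log2 fold change 3.76, adjusted p = 0.053). Dkk3, another atrial marker named after its values were seen, had 0.72 (adjusted p = 0.53). Bmp10 and Upk3b, also named after their values were seen, had -0.61 and -0.01 (adjusted p = 0.70 and 0.996). The median of the atrial list was -0.01, the value of Upk3b, and 4 of the 7 markers lay below 0. Myl4 and Myl7 had the largest differences of the list, and how far each of the 7 is confined to atria was not tested. Nppa and Tbx5, of the same list, had -0.07 and -0.09 (adjusted p = 0.94 each). The summed signal of the atrial list, most of it from Nppa (5154 ± 1853 in Glut1-TG and 5217 ± 506 in WT hearts, SD, n = 3 each), ran from 6392 to 9408 in the Glut1-TG arrays and from 6097 to 6988 in the WT arrays, and the part of the atrial markers in the higher signals was not tested. Of 12 fibroblast, 12 endothelial, 10 macrophage and leukocyte, 10 smooth muscle and pericyte, 4 skeletal muscle and 2 adipocyte markers 0 passed, with 1, 0, 0, 0, 1 and 0 higher and 0, 1, 0, 2, 0 and 0 lower at an unadjusted p under 0.05. Their medians were 0.09, -0.02, 0.06, -0.11, 0.01 and 0.01. The brightest genes of these lists did not pass, with log2 fold changes as follows: Dcn 0.05 and Vim -0.05 of fibroblasts, Eng 0.02 and Esam -0.04 of endothelium, Lyz2 -0.10 and Csf1r 0.31 of macrophages, Rgs5 -0.11 and Des -0.0040 of smooth muscle and pericytes, Acta1 0.26 and Ckm -0.24 of skeletal muscle, and Fabp4 0.05 and Retn -0.04 of adipocytes. Ckm also stood among the cardiomyocyte markers, Des among the Z-disc genes and Acta1 among the SRF and actin targets. The values of Ckm, Des and Acta1 therefore do not measure skeletal or smooth muscle content. How far the genes of these lists are confined to 1 cell type in this tissue was not tested. The summed fibroblast signal overlapped, from 40161 to 51930 in the Glut1-TG arrays and from 42361 to 47085 in the WT arrays, as did that of smooth muscle and pericytes, from 53516 to 55569 in the Glut1-TG arrays and from 51427 to 61929 in the WT arrays.

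**Figure D4:**
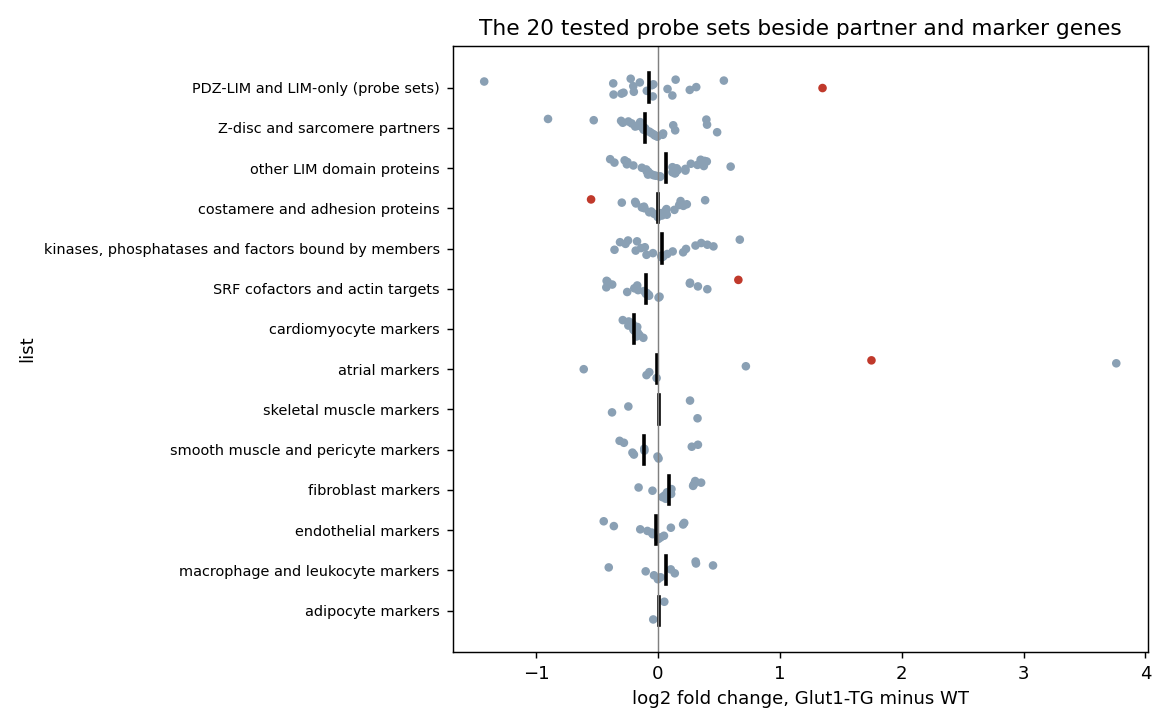
Difference in mean log2 signal, Glut1-TG minus WT (horizontal axis), for the 20 tested probe sets of the group and of the tested genes of each partner and marker list (rows), 1 point each, with a black line at the median and red points past the limma threshold. The cardiomyocyte markers lie together left of 0 with a median of -0.19, and the red points are Pdlim7 in the group, Sgca, Ccn1 and Myl4.

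The median of all signals was 213 in Glut1-TG replicate 1 and 171 to 187 in the other 5 arrays. This array was the highest of all 6 in 5 of the 20 probe sets and the lowest in 6. It was not alone in this, as WT replicate 3 was the highest in 7 and Glut1-TG replicate 2 the lowest in 5. Leaving out any 1 array kept the log2 fold change of Pdlim7 1417959_at between 1.30 and 1.40 and that of Csrp3 between -0.33 and -0.28. Over the same settings Pdlim3 lay between 0.42 and 0.66 and Pdlim4 between -1.69 and -1.02.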

How the data were processed

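Total RNA (10 µg) from left ventricles of Glut1-TG and WT mice was labelled as biotinylated cRNA and hybridised to Affymetrix mouse arrays, 3 per group. The deposited values are signal intensities per probe set, made by the authors with GCOS (version and settings not given in the sources used here) and scaled so that the 2% trimmed mean was 500 per array. The table held no detection calls; raw scans were not analysed here.

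Of 45101 probe sets, 64 controls were left out, values under 1 (48 in all) were set to 1, and log2 was taken. Platform annotation gave 1 symbol for 34945 probe sets, several for 932 and none for 9160. Glut1-TG was compared with WT in limma 3.58.1 (R 4.3.3, eBayes with intensity trend) over the 27022 probe sets in the upper 60% by mean, with Benjamini-Hochberg adjustment and a threshold of 0.05. Probe sets ending in _s_at or _x_at (5 of 23) can read related transcripts. The brightest probe set stood for each listed gene. Named genes were all members, up to 4 passing and the 2 brightest other genes per list, and the 3 most like Pdlim7. Members and lists were chosen with earlier results of these data known. The procedure was tested on simulated data. The number of arrays limits the precision. Alternatives were other scaling, offset, filters, variance trend, probe set summaries, the replicate number as a block, each array left out, and the methods' t-test, which was run because the study's statistics section names it in general.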

Additional observations from a re-analysis of the deposited data

How the results depend on the processing

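With 3 arrays per group only large or tight differences passed. Pdlim7 1417959_at kept its log2 fold change between 1.30 and 1.53 over 14 limma settings, given as a description since it was known when the group was chosen. Only the scalings, the offset and the arrays left out could move this value. For Pdlim7 1417959_at, eBayes without trend ended the call, as did the methods' t-test with adjustment. The number of member probe sets that rose was 1 and became 0 with eBayes without trend, with averaged probe sets per gene and with the adjusted t-test, and 2 at the study's thresholds of fold change and unadjusted p. The number that fell was 0 and became 2 at those thresholds. Of 307 values of the members' probe sets under alternatives, 286 kept direction and side of the threshold, 16 changed sign without ever passing, and 5 changed side. The cause was not tested. Direction could not change where only the filter, the choice of probe sets, the variance trend, the block or the test differed. The 286 are therefore in part fixed in advance and do not measure stability. Over all probe sets 40 rose and 78 fell. These counts were 0 and 0 with eBayes without trend, 9 and 38 with averaged probe sets per gene, 1 and 0 with the adjusted t-test, and 813 and 697 at the study's thresholds. With only the upper 40% of probe sets tested 61 rose, and after centring on the cardiomyocyte markers 47 rose and 27 fell. Leaving out 1 array gave 16 to 38 and 25 to 76. Of the listed genes 3 passed, and 5 did with an offset of 50 and with 1 probe set per gene, 10 at the study's thresholds, 1 without a filter and with averaged probe sets, 0 with eBayes without trend and with the adjusted t-test, and 1 to 2 without 1 array. The labels do not say whether the array numbers pair the groups, and the main fit assumed no pairing. Deviations of arrays with the same number correlated at 0.09, -0.02 and 0.06, while 4 of 6 arrays correlated best with their own number, so these values do not settle it. With the replicate block 36 rose and 76 fell, 1 and 0 of them members, and the call of Sgca ended (adjusted p = 0.097). Averaged over its 3 probe sets, Pdlim7 had 0.56 and did not pass.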

Other observations

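Among Z-disc genes outside the group, named here after their values were seen, Myot (myotilin, an actin-bundling Z-disc protein) had the largest difference. It averaged 4273 ± 886 in Glut1-TG and 7977 ± 1509 in WT hearts (SD, n = 3 each), which is -0.90 on the log2 scale with a standard error of 0.16, and limma did not call it (adjusted p = 0.055). Synpo2 (myopodin), another Z-disc protein, had 0.40 and its relative Synpo2l had -0.53 (adjusted p = 0.32 and 0.40). Zyx (zyxin), a LIM protein of focal adhesions and stress fibres, had 0.35, and Lmo7, a LIM domain protein, had -0.39 (adjusted p = 0.39 and 0.24). Srf itself had 0.26 (adjusted p = 0.42). Actb, Actg1 and Myocd, of the same list as Srf, had -0.42, -0.41 and -0.38 (adjusted p = 0.098, 0.17 and 0.49).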
